A study of Mus musculus with 4 samples.

Results

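The genes described here are 10 heat shock proteins and co-chaperones, Hspa8, Hspa1a, Hspa1b, Hsph1, Dnajb1, Bag3, Hsp90aa1, Hspb1, Cryab and Hspd1. They were taken by symbol from the 22609 gene symbols of a hippocampal RNA-Seq count table, and all 10 had enough counts to be tested. The table held 4 libraries of hippocampus from ovariectomized female mice. Of these, 2 came from FLOX+GCI mice, in which the floxed aromatase gene Cyp19a1 is intact, and 2 from FBN-ARO-KO+GCI mice, in which Cre driven by the CaMKIIα promoter deletes that gene in excitatory neurons of the forebrain and leaves other cells with it. According to the methods of the study the mice were 3 to 5 months old and had lost their ovaries 1 week before surgery. All mice, controls included, underwent global cerebral ischemia (GCI), a 20 min clamping of both common carotid arteries, followed by 24 h of reperfusion. There were no sham-operated libraries, so each comparison is between genotypes after ischemia and none is of ischemia itself. The sources do not say whether the libraries of a group came from separate mice, and p-values measure only the spread between these libraries, which may be technical.

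Heat shock proteins are chaperones that bind unfolded or misfolded proteins and are among the transcripts most readily induced by heat, oxidative stress and ischemia. In the cytosol an HSP70 (the constitutive Hspa8 or the inducible Hspa1a and Hspa1b) takes up a client that a J-domain protein such as Dnajb1 delivers, and Hsph1 of the HSP110 family or a BAG-domain protein such as Bag3 then exchanges its nucleotide so that the client is released. Hsp90aa1 finishes the folding of steroid receptors and kinases, Hspb1 and Cryab are small heat shock proteins that hold unfolded clients without ATP, and Hspd1 is the chaperonin of the mitochondrial matrix. The heat shock factor HSF1 drives many of these genes, and its binding element is made of inverted GAA units.

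Library totals on genes ran from 24333396 to 33076795 counts. Cyp19a1, the gene deleted in the knockout, had 4 and 1 counts in the FLOX+GCI libraries and 2 and 2 in the FBN-ARO-KO+GCI libraries, which is too few to check the genotype labels. Replicates differed by more than sampling noise (chi-square per degree of freedom 10.5 in FLOX+GCI and 12.3 in FBN-ARO-KO+GCI), so no library was a second deposit of another. Log2 fold changes followed the GC content of the transcript (Spearman rho -0.55 across 13869 genes, which are not independent replicates), and the difference between the FBN-ARO-KO+GCI replicates did so too (rho -0.48, against 0.10 between the FLOX+GCI replicates). Neuronal marker sums were 6963 and 6639 CPM (counts as a share of the library total, scaled by TMM) in FLOX+GCI and 6890 and 7557 CPM in FBN-ARO-KO+GCI, and the summed hippocampal region markers ranged from 910 to 952 CPM, so the labelled tissue had its defining markers in every library.

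How well a read can be placed differed greatly among the heat shock genes, because several have processed copies elsewhere in the genome. Each transcript was divided into windows of 50 bases, the read length, and each window was searched for in the mm9 genome outside its own gene. All windows of Hsph1, Cryab and Bag3 were found only in their own gene, as were 99.2% of those of Dnajb1. The share was 41.5% for Hspd1, 39.0% for Hspa1a, 37.7% for Hspa1b, 37.0% for Hspb1, 26.9% for Hsp90aa1 and 24.3% for Hspa8. Reads with several placements were counted for no gene in these files, where the counter of non-unique alignments held 35.1 to 36.5% of all tallied records, so the levels of the last 6 genes are taken from a part of each transcript.

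**Figure D1:**
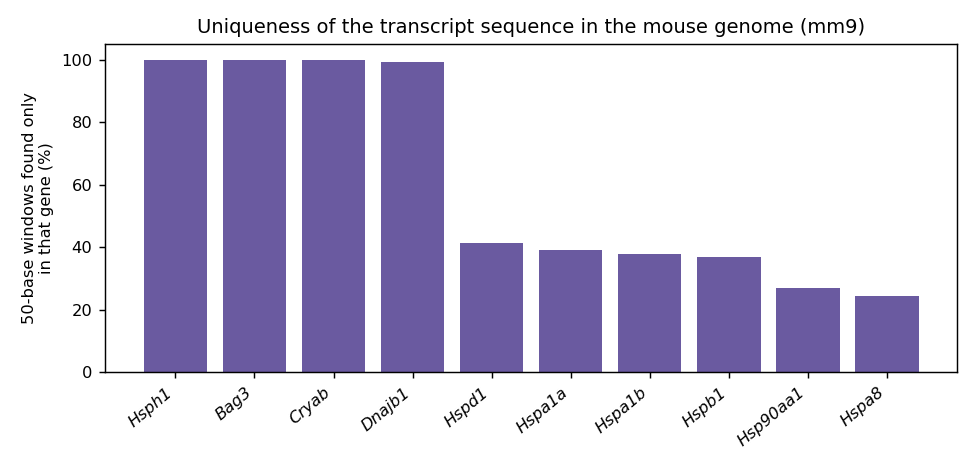
Share of each transcript's 50-base windows (y axis, %) that were found nowhere else in the mm9 genome, for the 10 heat shock genes (x axis). Hsph1, Bag3, Cryab and Dnajb1 stand at or near the top and Hspa8 is lowest at 24.3%.

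Hspa8 shows how this comes about. Of its 2345 windows 1776 also occurred elsewhere, at 11 other loci, and the largest of these shared 1691 windows at chr5:5781529-5783564 (mm9), where the annotation has the pseudogene Gm15459. The sequences below, from the Hspa8 coding strand in mm9, are the first coding window that is also found elsewhere, at chr9:40610006-40610055, and the first that is found in Hspa8 alone, at chr9:40610070-40610119.
Hspa8, found elsewhere: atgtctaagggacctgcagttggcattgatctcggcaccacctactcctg
Hspa8, found only there: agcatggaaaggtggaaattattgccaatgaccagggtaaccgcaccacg

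Hspa1a and Hspa1b, neighbors on chromosome 17, could hardly be told apart within their coding sequence by reads of this length. Their coding sequences were 99.4% identical, with 8 mismatches and 3 gap bases, and the longest identical run was 638 bases. The first line below is a window that both share, at chr17:35108371-35108420 in Hspa1a and at chr17:35095453-35095502 in Hspa1b (mm9, minus strand). The other two lines are the coding window in which the copies differ most, with the 2 differing bases in capitals, at chr17:35107455-35107504 and chr17:35094537-35094586.
Hspa1a and Hspa1b, shared: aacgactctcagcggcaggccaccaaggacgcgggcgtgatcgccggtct
Hspa1a: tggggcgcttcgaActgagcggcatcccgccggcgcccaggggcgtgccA
Hspa1b: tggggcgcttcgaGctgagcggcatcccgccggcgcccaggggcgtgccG

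Heat shock elements were looked for in the 250 bases before each annotated start (RefSeq, GRCm38.p6), which held 7 of the 10 genes. The inverted pair GAANNTTC or TTCNNGAA, which reads the same on both strands, was present in 12.8% of all 32851 promoters of this length. It was present at 1 or more starts of 5 of the 7 genes, Hspa1a, Hspa1b, Hspb1, Hsph1 and Hspd1, and these letters were not in the windows of Bag3 and Dnajb1. The share over all promoters counts each start, whereas a gene with several starts is counted once here, so the units differ. The promoters of Hspa1a (chr17:34972157-34972306) and Hspa1b (chr17:34959239-34959388, both GRCm38.p6, minus strand) are shown because the copies are nearly identical there too, with 3 differences in 250 bases and 1 in the last 150, which are printed with the pair in capitals.
Hspa1a: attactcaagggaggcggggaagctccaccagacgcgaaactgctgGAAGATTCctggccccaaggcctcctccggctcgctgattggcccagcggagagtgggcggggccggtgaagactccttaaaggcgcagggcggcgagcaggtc
Hspa1b: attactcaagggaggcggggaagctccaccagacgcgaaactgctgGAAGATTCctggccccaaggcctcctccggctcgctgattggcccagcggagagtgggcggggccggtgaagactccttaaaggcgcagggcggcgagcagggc

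Hspb1, Hsph1 and Hspd1 are set beside them because their pairs lie in different arrangements. Hspb1 (chr5:135887798-135887833, GRCm38.p6, plus strand) had 2 separate pairs and Hsph1 (chr5:149636352-149636381, minus strand) had 1. Hspd1 (chr1:55088053-55088082, minus strand) had a run of overlapping pairs that also holds the 3-unit form, GAANNTTCNNGAA or TTCNNGAANNTTC, found in 0.466% of all promoters. Hspd1 and Hspe1 are transcribed head to head, and the run is upstream of the Hspe1 start and of 1 of the 2 annotated Hspd1 starts, while it lies downstream of the other Hspd1 start. Capitals mark the matches, and a match is a description of the letters and not a site of binding.
Hspb1: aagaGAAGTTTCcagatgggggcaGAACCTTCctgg
Hsph1: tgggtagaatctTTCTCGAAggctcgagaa
Hspd1: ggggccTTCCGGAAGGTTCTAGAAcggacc

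The first question was whether the heat shock genes as a group differed between the genotypes. None of the 10 passed an adjusted p of 0.05 in the edgeR quasi-likelihood fit over 14527 genes, where 0.0138% of all genes did. In FBN-ARO-KO+GCI 8 of the 10 were higher and 2 were lower, with a median log2 fold change of 0.22 beside -0.01 over all tested genes. With an unadjusted p under 0.05, 4 genes (Dnajb1, Hsph1, Hsp90aa1 and Hspa8) were higher and none lower. Over all genes the shares were 8.72% higher and 7.82% lower by that rule. With 1 library left out the median of the 10 was between 0.14 (without FLOX+GCI replicate 2) and 0.25 (without FBN-ARO-KO+GCI replicate 1). Without FLOX+GCI replicate 1, Hspa8 fell from 0.24 to 0.13, and Hsp90aa1 was at 0.22 against 0.24 in the main fit. Hspa1a, Hspa1b and Bag3 were at 0.76, 0.80 and -0.55 there. The lowest value of Hsp90aa1, 0.19, came without FBN-ARO-KO+GCI replicate 2. The libraries of the genotypes did not overlap for 5 genes, all higher in FBN-ARO-KO+GCI, where 25.9% of all genes were higher without overlap and 25.8% lower. With 2 against 2 libraries the smallest two-sided p of an exact permutation test is 0.333, and the edgeR test instead takes its spread in part from other genes.

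**Figure D2:**
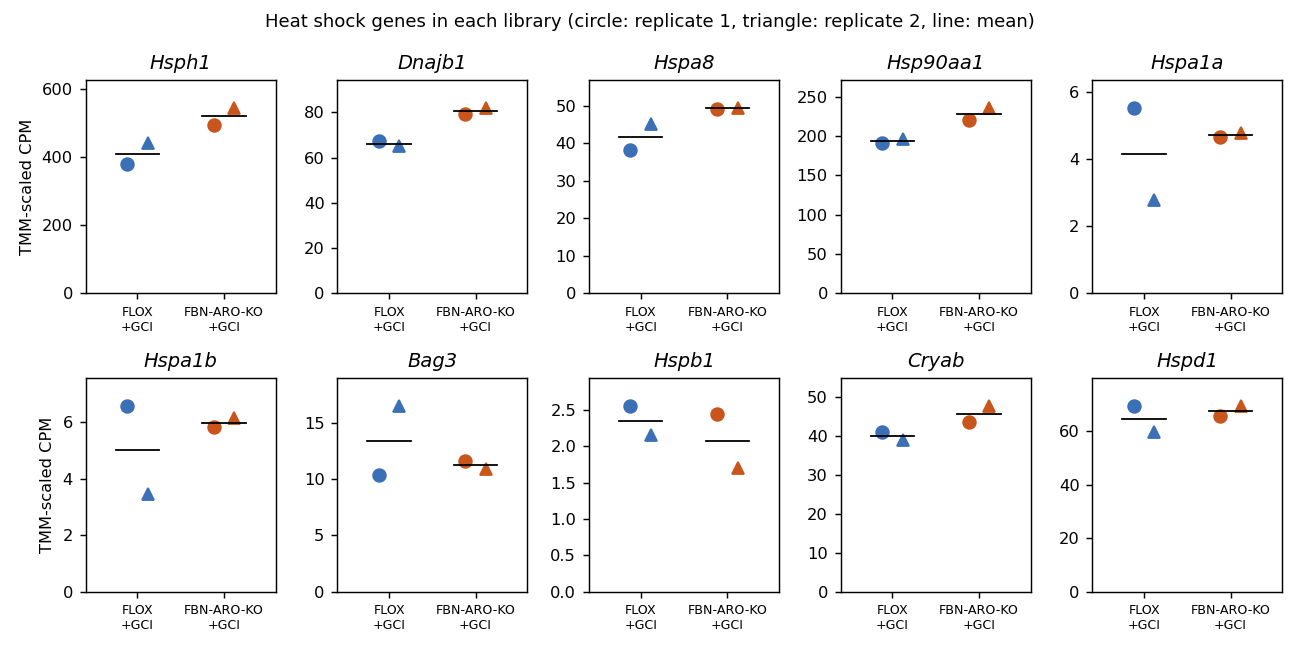
Level of each heat shock gene in CPM scaled by TMM (y axis, from 0) in each of the 4 libraries, with replicate 1 as a circle, replicate 2 as a triangle and the group mean as a line. The libraries of the 2 genotypes are apart for Hsph1, Dnajb1, Hspa8, Hsp90aa1 and Cryab and overlap for the other 5 genes.

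Hsph1, the HSP110 exchange factor, was the most abundant of the 10 per kilobase of transcript, at a mean of 122 CPM per kilobase over the libraries. It stood at 378 and 441 CPM in FLOX+GCI and at 492 and 544 CPM in FBN-ARO-KO+GCI. Both knockout libraries were above both controls, and the gap between the groups (441 to 492 CPM) was narrower than the distance between the controls. The knockout mean was 518 ± 36.7 CPM (SD, n = 2) and the control mean 409 ± 44.1 CPM (SD, n = 2). The log2 fold change was 0.34 (SE 0.095, adjusted p = 0.238). In DESeq2 its adjusted p was 0.0183, which made it the only heat shock gene called there, among 6 that were given an adjusted p, where 5.10% of all genes given one were called. Its fold change stayed between 0.24 and 0.45 with any 1 library left out.

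Dnajb1, the J-domain partner that stimulates the ATPase of HSP70, differed little between replicates. Its levels were 67.1 and 65.2 CPM in FLOX+GCI and 79.3 and 82.1 CPM in FBN-ARO-KO+GCI. The replicates were within 5% of each other in both groups and the groups did not overlap, for a log2 fold change of 0.29 (SE 0.075, adjusted p = 0.238) and a range of 0.26 to 0.31 with 1 library left out. Dnajb1 had the smallest unadjusted p of the 10, at rank 358 among the 14527 genes.

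Hspa8, the constitutive HSP70 known as HSC70, had 38.3 and 45.0 CPM in FLOX+GCI and 49.1 and 49.5 CPM in FBN-ARO-KO+GCI. The knockout libraries nearly coincided and lay above both controls, which differed from each other by more than the distance to the knockout. The log2 fold change was 0.24 (SE 0.10, adjusted p = 0.293), and it was 0.13 without FLOX+GCI replicate 1 and 0.36 without FLOX+GCI replicate 2. These counts come from the 24.3% of Hspa8 that is unique, and dividing by unique windows in place of length raised its mean level from 19.0 CPM per kilobase to 79.9 CPM per 1000 unique windows, which moved it from below Dnajb1 (32.4 per kilobase, 33.4 per 1000 unique windows) to above it.

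The inducible HSP70 genes were low and uneven. Hspa1a was at 5.55 and 2.80 CPM in FLOX+GCI and at 4.68 and 4.78 CPM in FBN-ARO-KO+GCI, from 69 to 155 counts. Hspa1b was at 6.58 and 3.45 CPM in FLOX+GCI and at 5.82 and 6.15 CPM in FBN-ARO-KO+GCI, from 85 to 193 counts. In both genes the knockout libraries lay between the controls, and FLOX+GCI replicate 2 had 0.505 and 0.524 times the level of replicate 1. The log2 fold changes, 0.18 for Hspa1a (SE 0.31, adjusted p = 0.788) and 0.25 for Hspa1b (SE 0.29, adjusted p = 0.670), turned to -0.23 and -0.14 without FLOX+GCI replicate 2. They rose to 0.76 and 0.80 without FLOX+GCI replicate 1. The ratio of Hspa1a to Hspa1b counts was 0.842, 0.812, 0.803 and 0.778 in FLOX+GCI 1 and 2 and FBN-ARO-KO+GCI 1 and 2, so the copies moved together across libraries. Part of Hspa1a (552 exon bases) is also covered on the opposite strand by Gm20481, and without a stated strand setting those reads cannot be told apart.

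Bag3, the BAG-domain protein that links HSP70 to small heat shock proteins and autophagy, was at 10.3 and 16.5 CPM in FLOX+GCI and at 11.6 and 10.9 CPM in FBN-ARO-KO+GCI. FLOX+GCI replicate 2 alone was high, at 1.59 times replicate 1, and the other 3 libraries lay within 10.3 to 11.6 CPM. The log2 fold change was -0.25 (SE 0.21, adjusted p = 0.556) and became 0.12 without that library and -0.55 without FLOX+GCI replicate 1. FLOX+GCI replicate 2 was also the highest library for 10 of 13 pan-reactive astrocyte transcripts that the study displayed. The sum of this list was 1517 CPM there and 752, 893 and 892 CPM in FLOX+GCI 1 and FBN-ARO-KO+GCI 1 and 2. Most of the sum was from Gfap and Serpina3n, at 900 and 438 CPM in FLOX+GCI replicate 2. That list holds Hspb1 and was chosen on these samples, and its part in the Bag3 values was not tested.

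Hsp90aa1, the stress-inducible cytosolic HSP90, was at 191 and 195 CPM in FLOX+GCI and at 220 and 236 CPM in FBN-ARO-KO+GCI. The controls were within 3% of each other and both lay below the knockout libraries. The log2 fold change was 0.24 (SE 0.072, adjusted p = 0.245), between 0.19 and 0.28 with any 1 library left out. Only 26.9% of its windows are unique, since Gm12346 on chromosome 11 shares 2110 of them and Gm5844 on chromosome 3 shares 1461. Per unique window it was the most abundant of the 10, at 242 CPM per 1000 unique windows, ahead of Hsph1 at 124.

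Hspb1, the small heat shock protein HSP25, was the lowest of the 10 in CPM, at 2.55 and 2.15 CPM in FLOX+GCI and 2.44 and 1.71 CPM in FBN-ARO-KO+GCI. These values rest on 50 to 81 counts and the genotypes overlapped, with a log2 fold change of -0.18 (SE 0.28, adjusted p = 0.769) that was 0.06 without FBN-ARO-KO+GCI replicate 2. The summed level of 7 endothelial and mural cell markers had the same order of libraries as Hspb1, at 290 and 190 CPM in FLOX+GCI and 225 and 147 CPM in FBN-ARO-KO+GCI, with 7 of 7 genes lower in the knockout fit and 0 of 7 at 0 counts. In bulk tissue fewer cells of a type and less RNA per cell cannot be told apart, and the part of these markers in the Hspb1 values was not tested. One further locus, on chromosome 13, shared 555 of the 881 Hspb1 windows.

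Cryab (αB-crystallin), the other small heat shock protein here, is a protein of glia, oligodendrocytes above all. It was at 40.9 and 38.9 CPM in FLOX+GCI and at 43.6 and 47.7 CPM in FBN-ARO-KO+GCI. The groups did not overlap, but the log2 fold change of 0.19 (SE 0.091) was not among those with an unadjusted p under 0.05 (adjusted p = 0.332). The summed level of 7 oligodendrocyte markers was 3974 and 4487 CPM in FLOX+GCI and 4551 and 4686 CPM in FBN-ARO-KO+GCI, with 6 of 7 higher in the fit and none at 0 counts, and astrocyte marker sums were 4882 and 5141 CPM against 5099 and 5790 CPM. Their part in the Cryab values was not tested. Cryab and Hspb2 start 404 bases apart on opposite strands and share no exon bases, and Hspb2 was at 0.918, 0.568, 0.664 and 0.444 CPM in FLOX+GCI 1 and 2 and FBN-ARO-KO+GCI 1 and 2.

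Hspd1, the mitochondrial chaperonin HSP60, was at 69.2 and 59.9 CPM in FLOX+GCI and at 65.6 and 69.4 CPM in FBN-ARO-KO+GCI. One knockout value was between the controls and the other was just above them, and the log2 fold change was 0.06 (SE 0.095, adjusted p = 0.750) and -0.04 without FLOX+GCI replicate 2. Its partner Hspe1 was at 18.2, 17.0, 18.7 and 19.7 CPM in FLOX+GCI 1 and 2 and FBN-ARO-KO+GCI 1 and 2, and its log2 fold change was 0.12 (SE 0.11, adjusted p = 0.581), or 0.25 after the GC correction. The genes share 112 exon bases on opposite strands, where reads cannot be assigned without strand.

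Per kilobase of transcript the order of mean levels was Hsph1 (122 CPM per kilobase), Hsp90aa1 (64.2), Cryab (36.1), Dnajb1 (32.4), Hspd1 (27.3), Hspa8 (19.0), Bag3 (4.76), Hspb1 (2.38), Hspa1b (1.96) and Hspa1a (1.52). In FLOX+GCI alone the neighbors Cryab and Dnajb1 (33.7 ± 1.17 and 29.2 ± 0.616, SD, n = 2) were apart, while Dnajb1 and Hspd1 (26.6 ± 2.73) were within their spread. Hspb1 (2.53 ± 0.307) and its neighbor in this order, Hspa1b (1.79 ± 0.791) overlapped within their spread, as did Hspa1b and Hspa1a (1.43 ± 0.664). This order rests on all of each transcript, and it was different per 1000 unique windows, where Hspd1 (67.0 CPM) was above Cryab (37.7 CPM) and Dnajb1 (33.4 CPM), and Hspb1 (6.79 CPM) and Hspa1b (5.30 CPM) were above Bag3 (4.85 CPM).

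**Figure D3:**
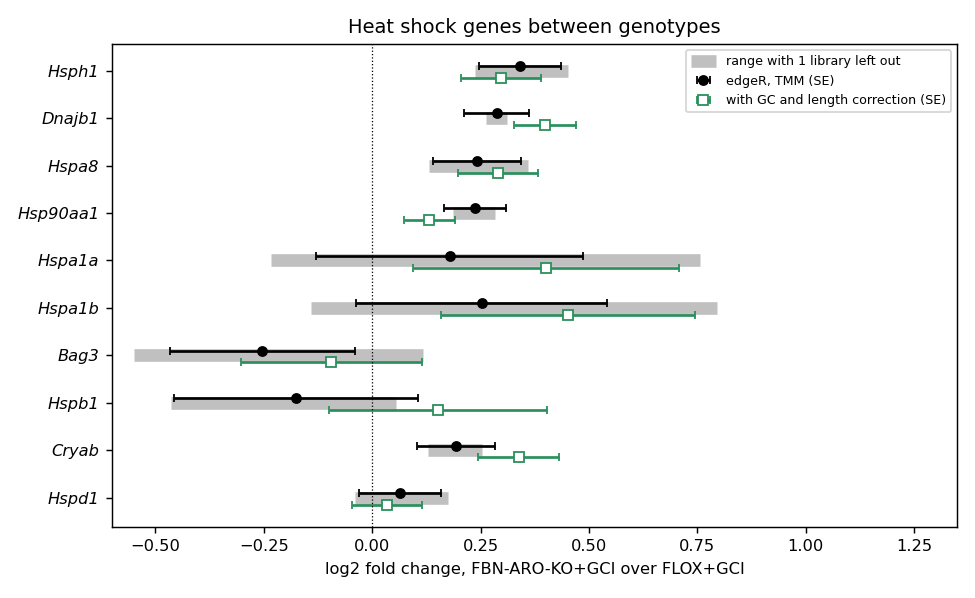
Log2 fold change of FBN-ARO-KO+GCI over FLOX+GCI (x axis) for the 10 heat shock genes, as the edgeR value with its SE (black points), its range with 1 library left out (grey bars) and the value after a correction for GC content and length with its SE (green squares). The grey bars of Hspa1a, Hspa1b, Bag3, Hspb1 and Hspd1 cross 0, and those of Hsph1, Dnajb1, Hspa8, Hsp90aa1 and Cryab do not.

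Since fold changes in these libraries followed GC content, each heat shock gene was set beside genes of like GC. Genes were split into 10 equal classes by GC content, and the median log2 fold change was 0.22 in the class with the lowest GC content and -0.22 in the class with the highest. Hsp90aa1 (43.7% GC) lay in a class with a median of 0.14, 0.09 below its own value, whereas Dnajb1 (54.0% GC) and Cryab (53.7% GC) lay in a class with a median of -0.05, and exceeded it by 0.34 and 0.25. Hsph1 exceeded the median of its class by 0.28, Hspa8 by 0.25, Hspa1a and Hspa1b by 0.40 each, and Hspd1 by 0.00, while Hspb1 was 0.05 above and Bag3 was -0.11 relative to theirs. GC content was that of the whole transcript, while counts of Hspa8, Hspa1a, Hspa1b, Hspb1, Hsp90aa1 and Hspd1 come from its unique part. The GC content of that part was not examined, so their classes and corrected values are less certain. After a correction for GC content and length the log2 fold change was 0.40 for Dnajb1 (SE 0.072, adjusted p = 0.280), 0.34 for Cryab (SE 0.094, adjusted p = 0.349), 0.30 for Hsph1 (SE 0.092, adjusted p = 0.367) and 0.29 for Hspa8 (SE 0.093, adjusted p = 0.368). These 4 genes had an unadjusted p under 0.05 in that fit, where 7.90% of all genes were higher with an unadjusted p under 0.05. Hsp90aa1 was at 0.13 (SE 0.059, adjusted p = 0.459) and Hspb1 changed sign to 0.15 (SE 0.25). The median of the 10 was 0.29 beside 0.03 over all genes.

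**Figure D4:**
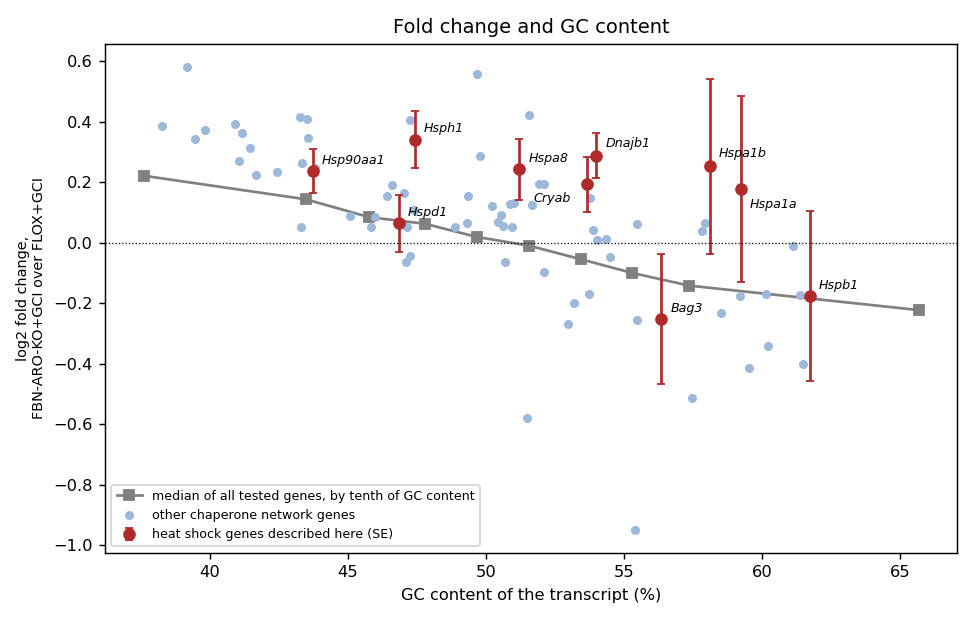
Log2 fold change of FBN-ARO-KO+GCI over FLOX+GCI (y axis) against the GC content of the transcript in percent (x axis) for the 10 heat shock genes (red, with SE), other chaperone genes (light blue) and the median of all tested genes in each of 10 classes of GC content (grey squares). The grey line goes from 0.22 to -0.22 as GC content rises, and Dnajb1, Cryab, Hsph1 and Hspa8 lie above it by 0.25 to 0.34.

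The rest of the chaperone network was then examined in 7 lists by role, 71 genes in all, of which 69 were tested. None passed an adjusted p of 0.05. At an unadjusted p under 0.05, FBN-ARO-KO+GCI had 19 that were higher and 3 that were lower, where 8.72% of all genes were higher and 7.82% lower by that rule. The GC correction gave 18 higher and none lower, where 1148 of all 14527 genes were higher and 510 lower in that fit. Without FBN-ARO-KO+GCI replicate 2 the median log2 fold change of the network was 0.07, beside -0.01 over all genes. The counts of the lists below are of the main fit and are to be read against its shares, 8.72% higher and 7.82% lower.

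Among other HSP70 and HSP110 genes 4 of 10 were higher at an unadjusted p under 0.05 and none lower, with a median log2 fold change of 0.15. Hspa5 (BiP), the HSP70 of the endoplasmic reticulum, was at 310 and 324 CPM in FLOX+GCI and 386 and 454 CPM in FBN-ARO-KO+GCI. The groups were apart by 0.41 on the log2 scale (SE 0.091, adjusted p = 0.238). Hspa4l was at 0.34 (SE 0.074, adjusted p = 0.238) and Hspa13 at 0.37 (SE 0.12, adjusted p = 0.248). After the GC correction Hspa5 was at 0.38, while Hspa4l was at 0.10 and Hspa13 at 0.16 and neither kept an unadjusted p under 0.05. Hspa9, the mitochondrial HSP70, ranged only from 256 to 274 CPM and had a log2 fold change of 0.05 (SE 0.069, adjusted p = 0.718).

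Of the J-domain co-chaperones 15 of 16 had a log2 fold change above 0, as had 7069 of the 14527 genes tested, and 6 were higher at an unadjusted p under 0.05 (median 0.15). The smallest p belonged to Dnajc3, an inhibitor of the eIF2α kinase PKR that resides in the endoplasmic reticulum (0.41 ± 0.11, SE), Dnaja4 (0.29 ± 0.080) and Dnaja1 (0.36 ± 0.11), with adjusted p of 0.238, 0.238 and 0.245. After the GC correction Dnajc3 was at 0.26, Dnaja4 at 0.30 and Dnaja1 at 0.16, and Dnaja1 no longer had an unadjusted p under 0.05.

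The HSP90 family and its co-chaperones had 6 of 12 genes higher at an unadjusted p under 0.05 and none lower, with a median of 0.19. Chordc1, a partner of HSP90, had 56.8 and 53.9 CPM in FLOX+GCI and 72.8 and 92.8 CPM in FBN-ARO-KO+GCI (0.58, SE 0.12, adjusted p = 0.238). Fkbp5, an HSP90 co-chaperone of steroid receptors and itself a target of glucocorticoids, had 102 and 116 CPM against 146 and 147 CPM (0.42, SE 0.084, adjusted p = 0.238), and passed the threshold without FLOX+GCI replicate 2 (0.52, adjusted p = 0.0395). Hsp90b1 of the endoplasmic reticulum was at 0.25 (SE 0.079, adjusted p = 0.248). The constitutive Hsp90ab1, at 2010 and 1971 CPM in FLOX+GCI and 2197 and 2162 CPM in FBN-ARO-KO+GCI, was at 0.13 (SE 0.062, adjusted p = 0.338), with no overlap between the groups. The GC-corrected values were 0.39 for Chordc1, 0.45 for Fkbp5, 0.15 for Hsp90b1 and 0.17 for Hsp90ab1.

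The small heat shock proteins outside the 10 had values on the other side of 0. All 5 that were tested had a log2 fold change below 0, where 7069 of all 14527 genes tested were above 0. Their median, -0.51 (-0.35 after the GC correction), was the value of Hspb7 (SE 0.60), which had 5 to 19 counts. With 1 library left out Hspb7 ranged from -1.65 to 0.08. Hspb2 and Hspb3 had 9 to 23 counts. Of the 5 genes, 1 had an unadjusted p under 0.05. This was Hspb6 (HSP20), a protein of muscle and vessel walls, at 3.43 and 6.82 CPM in FLOX+GCI and 3.17 and 2.12 CPM in FBN-ARO-KO+GCI (-0.95, SE 0.36, adjusted p = 0.269). Without FLOX+GCI replicate 2, the library with 1.99 times the Hspb6 level of replicate 1, the value was -0.37, and without FLOX+GCI replicate 1 it was -1.36 with an adjusted p of 0.0261. After the GC correction it was -0.78 and no longer had an unadjusted p under 0.05. Hspb3 was at -0.58 (SE 0.46, adjusted p = 0.528) and Hspb8, a partner of Bag3, at -0.27 (SE 0.24, adjusted p = 0.572). Cryaa, at 4 to 12 counts, was below the filter, and Hspb9 had 0 counts in every library, which allows a level of up to 0.0907 to 0.123 CPM (3 counts of the library total, counting error only). Of these genes Hspb8 and Hspb2, the latter at 13 to 23 counts, had the library order of the endothelial and mural marker sums given with Hspb1. Hspb3, Hspb6 and Hspb7 did not. Hspb6 was highest in FLOX+GCI replicate 2, where that sum was 190 CPM, against 290 CPM in replicate 1. The pan-reactive astrocyte sum given with Bag3 was also highest in FLOX+GCI replicate 2. The part of either set of markers in these values was not tested.

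Other HSP70 partners were mixed, with 2 of 12 higher and 1 lower at an unadjusted p under 0.05 and a median of -0.06. Bag4 was at 0.35 (adjusted p = 0.238), St13 (the HSP70-interacting protein Hip) at 0.26 (adjusted p = 0.248) and Hspbp1, a nucleotide exchange factor with 60.2% GC, at -0.34 (adjusted p = 0.248). After the GC correction they were at 0.21, 0.15 and -0.07, and only Bag4 of these kept an unadjusted p under 0.05. All 9 chaperonin genes had a log2 fold change above 0 but none an unadjusted p under 0.05 (median 0.07). The cytosolic chaperonin subunits Cct6a and Tcp1 were at 0.15 (SE 0.070, adjusted p = 0.320) and 0.11 (SE 0.068, adjusted p = 0.440).

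Of the heat shock factors Hsf1 was at 33.1 and 37.4 CPM in FLOX+GCI and 37.4 and 35.0 CPM in FBN-ARO-KO+GCI, with a log2 fold change of 0.04 (SE 0.10, adjusted p = 0.865). Its libraries overlapped. Hsf2 was at 0.27 (adjusted p = 0.271), Hsf4, a factor best known from the lens, at -0.40 (adjusted p = 0.271) and Hsf5, under 1 CPM in every library, at 0.56 (SE 0.55, adjusted p = 0.620). After the GC correction Hsf2 was at 0.11 and Hsf4 at -0.10, neither with an unadjusted p under 0.05, and Hsf1 was at 0.24 with one.

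**Figure D5:**
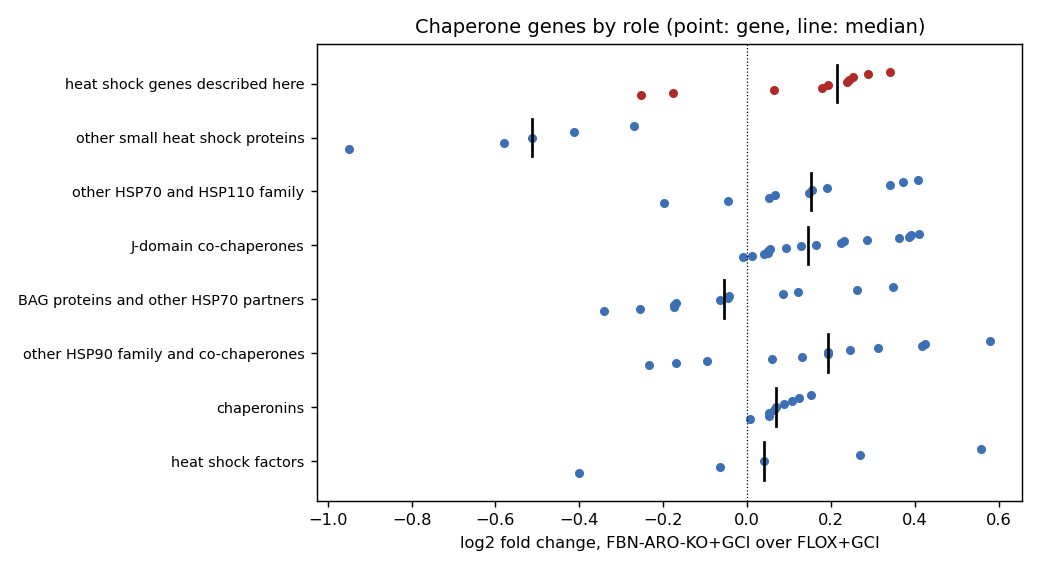
Log2 fold change of FBN-ARO-KO+GCI over FLOX+GCI (x axis) for each tested chaperone gene (points, offset vertically only to separate them) and the median of each list (black line), for the heat shock genes described here (red) and the 7 lists by role (blue). The medians run from -0.51 for the other small heat shock proteins to 0.22 for the heat shock genes.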

How the data were processed

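Hippocampal RNA-Seq was analysed in 2 FLOX+GCI and 2 FBN-ARO-KO+GCI libraries, grouped by their labels. Single-end reads of 50 nt had been mapped by the authors with TopHat2 2.0.8b on mm9, and the deposited values are raw HTSeq counts per gene symbol, without normalization. The HTSeq version, strand setting and annotation release are not given in the sources used here. The 5 HTSeq counters of unassigned reads were left out of library totals and tests. These counts entered edgeR 4.0.16 (R 4.3.3, quasi-likelihood test of genotype) with TMM, filterByExpr (minimum count 10) and Benjamini-Hochberg adjustment over all 14527 genes. SE is the log2 fold change over the square root of F. Levels are TMM-scaled CPM, divided by transcript length where genes are set side by side.

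The heat shock genes and the chaperone and marker lists were chosen with earlier results of these data known, and nothing is adjusted over them alone. All 10 heat shock genes are named. From each other list the up to 3 genes with the smallest p are named, with Hsp90ab1, Hspe1, Hspa9, Hspa5, Hsf1 and genes overlapping or adjoining a heat shock gene. Hspb7 is named because its value is the median of its list.

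Coordinates, GC content and length came from GENCODE M1 (mm9, 20063 symbols with a transcript sequence), windows of 50 bases from the mm9 genome, and promoters from RefSeq (GRCm38.p6). The scripts were tested on simulated data. Alternatives were DESeq2 1.42.0, the edgeR likelihood ratio test, DESeq-style size factors, scaling by library totals, a filter of at least 1 count, a filter of 50 counts on the mean, the replicate number as a block, a correction for GC content and length (splines with 5 degrees of freedom), both together, Hspa1a and Hspa1b summed, and each library left out. The correction for GC content was known from earlier work on these data.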

Additional observations from a re-analysis of the deposited data

How the results depend on the processing

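The 2 genes called over all 14527 became 292 with DESeq2, 294 with the likelihood ratio test, 5 with every gene of at least 1 count, and 0 to 193 with 1 library left out (193 without FLOX+GCI 1, 127 without FLOX+GCI 2 and 0 without either FBN-ARO-KO+GCI library). Of the 10 heat shock genes, 1 (Hsph1) was called in DESeq2 and none with any other alternative. The number with an unadjusted p under 0.05 was 4 in the main fit. It was 3 with DESeq2, with library totals only and with the filter of 50 counts on the mean. Without FLOX+GCI 1, Hspa8 was at 0.132 and Hsp90aa1 at 0.223, while Hspa1a was at 0.757, Hspa1b at 0.795 and Bag3 at -0.549. The median log2 fold change of the 10 was 0.18 with library totals only, 0.29 with the GC correction, and 0.14 to 0.25 with 1 library left out. Of 134 alternative values of single heat shock genes 126 kept direction and side of the threshold, 7 changed sign and 1 newly passed. Without FLOX+GCI 2 the signs changed for Hspa1a (-0.234, range with 1 library left out -0.234 to 0.757), Hspa1b (-0.142, -0.142 to 0.795), Hspd1 (-0.0401, -0.0401 to 0.174) and Bag3 (0.118, -0.549 to 0.118). Hspb1 changed to 0.152 with the GC correction and to 0.0559 without FBN-ARO-KO+GCI 2 (-0.465 to 0.0559). Of the network genes, DESeq2 called 7 of 47 given an adjusted p (5.10% of all genes given one), the likelihood ratio test called 5 of 69, and leaving out a library called 0 to 1 (Hspb6 at -1.36, adjusted p = 0.0261, without FLOX+GCI 1, and Fkbp5 at 0.52, adjusted p = 0.0395, without FLOX+GCI 2). Signs also changed for Hsf1 (-0.0437 without FLOX+GCI 1, -0.0130 without FBN-ARO-KO+GCI 1, at most 0.125 with any library left out), Hspa9 (-0.0068 with the GC correction) and Hspb8 (0.139 without FLOX+GCI 1, -0.589 without FLOX+GCI 2). The cause of these changes was not tested. A lone library left in a group is assumed to vary like the other group.

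The replicate numbers are shared only as numbers, and deviations from the group means correlated at r = 0.13 between same-numbered libraries. A fit with that number as a block called 184 genes, none of the 10 heat shock genes (Hsph1 adjusted p = 0.0700) and 3 network genes, Chordc1, Fkbp5 and Hspa5 (adjusted p = 0.0228, 0.0420 and 0.0420). Block and GC correction together called 3 genes in all, none of them in the network or among the 10, and gave a median of 0.30 for the 10, and Hspb1 at 0.145.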
